A study of Mus musculus with 16 samples.

Results

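The genes described here were 10 keratins measured by RNA-seq in KPC1199 cells, a murine pancreatic ductal adenocarcinoma (PDAC) line. Krt7, Krt8, Krt18, Krt19, Krt20 and Krt23 were taken as the 6 keratins of ductal type, and Krt5, Krt14, Krt17 and Krt80 as the 4 of squamous (basal) type. They were found by gene symbol, and all 10 were present among the 55414 Ensembl genes of the untreated experiment and the 56980 of the IFNγ experiment, which both listed 54 keratin symbols. The line came from a tumor of a mouse in which a Pdx promoter drove Cre and which carried a mutant Trp53 allele, so every group carried this allele. Cells received a control guide (sgCtrL) or a single CRISPR guide against Sin3b (Sin3Bsg1), which encodes a scaffold protein of a histone deacetylase complex. The untreated experiment held 2 libraries for each guide. The labels do not say whether these came from separate cultures. The IFNγ experiment held 3 libraries for each guide without IFNγ (−IFNγ) and 3 with IFNγ at 10 ng per ml for 24 h (+IFNγ), 16 libraries in all.

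Keratins are the intermediate filament proteins of epithelia, and each filament is built from heterodimers of a type I and a type II chain. Simple epithelia such as the pancreatic duct use Krt8 (type II) with Krt18 and Krt19 (type I), to which Krt7 (type II) and Krt20 (type I) are added in some ducts and glands. The basal layer of stratified epithelia uses Krt5 (type II) with Krt14 (type I), and these chains together with Krt17 (type I) are read in pancreatic tumors as signs of a squamous or basal program.

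In annotation GENCODE vM39 on GRCm39, the 10 genes lay in the type I cluster on chromosome 11 or the type II cluster on chromosome 15. Krt8 (chr15:101905133-101912917, minus strand) and Krt18 (chr15:101936615-101940462, plus strand) were 23697 bases apart, so the type I gene Krt18 stood within the type II cluster beside its partner. A processed Krt8 pseudogene, Krt8-ps, was listed at 0 counts in all 16 libraries. Krt20 (chr11:99319227-99328985) and Krt23 (chr11:99366873-99383963), both on the minus strand, were 37887 bases apart. Krt7 (chr15:101308924-101328194) lay on the plus strand in the same cluster as Krt80 (chr15:101245325-101268043, minus strand), and Krt19 (chr11:100031636-100039491) on the minus strand in the type I cluster near Krt14 (chr11:100093988-100098490) and Krt17 (chr11:100147040-100151974).

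RefSeq promoters, 250 bases before the start of transcription and 50 after it, were matched for 7 of the 10 genes. They are shown for Krt18 and Krt8, the leading filament pair, and for Krt20 and Krt7, which are restricted to fewer epithelia. Capitals mark every match, on either strand, to any of 5 motifs that were searched. These were TTCNNNGAA (a STAT site), TGACTCA (an AP-1 site), GAAANNGAA (the core of an interferon-stimulated element), GGGCGG (the GC box) and TATAAA (the TATA box). Coordinates are on GRCm38.p6, at chr15:102027966-102028265 (plus strand), chr15:102004293-102004592 (minus strand), chr11:99438104-99438403 (minus strand) and chr15:101412153-101412452 (plus strand).
Krt18: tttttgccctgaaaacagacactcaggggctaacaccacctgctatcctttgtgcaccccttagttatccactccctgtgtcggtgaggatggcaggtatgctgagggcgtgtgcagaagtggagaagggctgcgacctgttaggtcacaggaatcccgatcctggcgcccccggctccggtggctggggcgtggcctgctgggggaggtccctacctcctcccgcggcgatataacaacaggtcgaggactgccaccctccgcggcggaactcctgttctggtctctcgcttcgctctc
Krt8: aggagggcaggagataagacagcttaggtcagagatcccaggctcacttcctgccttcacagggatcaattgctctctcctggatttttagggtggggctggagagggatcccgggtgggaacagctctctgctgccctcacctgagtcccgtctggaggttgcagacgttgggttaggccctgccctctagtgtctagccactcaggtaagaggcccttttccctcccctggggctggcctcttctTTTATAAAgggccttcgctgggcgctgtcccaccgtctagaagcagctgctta
Krt20: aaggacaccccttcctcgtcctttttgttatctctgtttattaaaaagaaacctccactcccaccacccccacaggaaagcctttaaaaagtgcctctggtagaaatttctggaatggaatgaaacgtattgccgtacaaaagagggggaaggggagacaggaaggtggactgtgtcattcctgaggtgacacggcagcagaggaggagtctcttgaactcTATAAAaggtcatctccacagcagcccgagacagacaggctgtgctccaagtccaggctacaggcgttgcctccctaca
Krt7: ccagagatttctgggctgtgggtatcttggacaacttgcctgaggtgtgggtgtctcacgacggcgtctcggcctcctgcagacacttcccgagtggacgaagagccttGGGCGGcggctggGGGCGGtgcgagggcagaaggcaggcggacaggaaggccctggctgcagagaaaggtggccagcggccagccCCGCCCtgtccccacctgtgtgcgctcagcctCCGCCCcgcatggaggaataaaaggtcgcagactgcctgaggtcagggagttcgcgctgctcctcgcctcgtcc

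None of the 7 promoters held the letters of the first 3 motifs, which were in 8.30%, 5.20% and 8.56% of 32851 RefSeq promoters of the same length. Krt7 held GGGCGG at 4 places (35.7% of all promoters held it). TATAAA was in the promoters of Krt20 and Krt8 (13.6% of all). The match in Krt20 began at -29 from the start of transcription. The 2 matches in Krt8 overlapped on opposite strands and began at -3 and -1, at the annotated start itself. The Krt18 window held no match to any of the 5 motifs. A match or its absence describes only these letters in these windows.

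Libraries held 29499676 to 32093612 counts in the untreated experiment and 18128016 to 27056813 in the IFNγ experiment. Sin3b was lower in every Sin3Bsg1 library, at 18.2 and 17.0 TPM (counts scaled for gene length and library size) against 44.2 and 41.6 in the untreated experiment, 21.1, 20.8 and 21.4 against 50.1, 50.3 and 47.2 without IFNγ and 17.6, 18.9 and 17.5 against 40.8, 41.9 and 42.8 with it. A single library stood apart from its group. By chi-square, averaged over genes, counts of sgCtrL +IFNγ replicate 1 were 22.4 and 18.6 away from replicates 2 and 3, which were 4.06 away from each other, while 2.40 to 9.35 was the range of the remaining replicate pairs, and keratin results that rest on it are also given without it. Among 6 markers of pancreatic ductal tumor cells, Cdh1, Sox9, Muc1 and Epcam were measured above 1 TPM as a group mean and Cldn4 was under it in every group. Their summed level moved with the groups, at 222 to 224 TPM in sgCtrL and 358 to 360 TPM in Sin3Bsg1 untreated, 234 to 251 and 316 to 332 TPM without IFNγ, and 158 to 181 and 209.7 to 243 TPM with it. Of 10 fibroblast markers, 8 were under 1 TPM in the untreated and −IFNγ groups and 7 in the +IFNγ groups. Their sum, mostly Pdgfra and Pdgfrb, was lower in Sin3Bsg1, at 10.6 to 11.5 against 32.2 to 32.7 TPM untreated, 76.7 to 80.5 against 86.2 to 89.7 TPM without IFNγ and 55.4 to 61.5 against 63.6 to 65.2 TPM with it. All 7 endothelial markers were under 1 TPM, 10 of 11 leukocyte markers were at 3 counts or fewer in each group (Cd68 was measured, with sums of 9.57 to 14.6 TPM), and 11 of 13 acinar and endocrine markers were under 1 TPM (sums of 6.92 to 22.7 TPM). The part of these markers in the keratin results was not tested.

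The cells expressed the keratins of simple epithelium at a high level and the basal keratins hardly at all. Krt8, Krt18 and Krt19 together made up 95.02% to 98.2% of the summed TPM of the 10 keratins in each library, and the 10 genes took 0.304% to 0.618% of all counts. In untreated sgCtrL cells Krt8 stood at 2310.2 ± 2.68 TPM (SD, n = 2), followed by Krt18 at 1587 ± 17.8, Krt19 at 1449 ± 3.23, Krt20 at 62.2 ± 0.0312, Krt7 at 19.1 ± 0.399, Krt80 at 18.4 ± 1.30 and Krt23 at 0.822 ± 0.351 TPM. Neighbours in this order did not overlap between libraries, with the exception of Krt7 with Krt80 and of the lowest genes (Krt23 with Krt14, Krt17 with Krt5). In the other 5 groups Krt7 and Krt80 overlapped only in sgCtrL −IFNγ, and among the leading genes only Krt18 and Krt8 in sgCtrL +IFNγ.

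**Figure D1:**
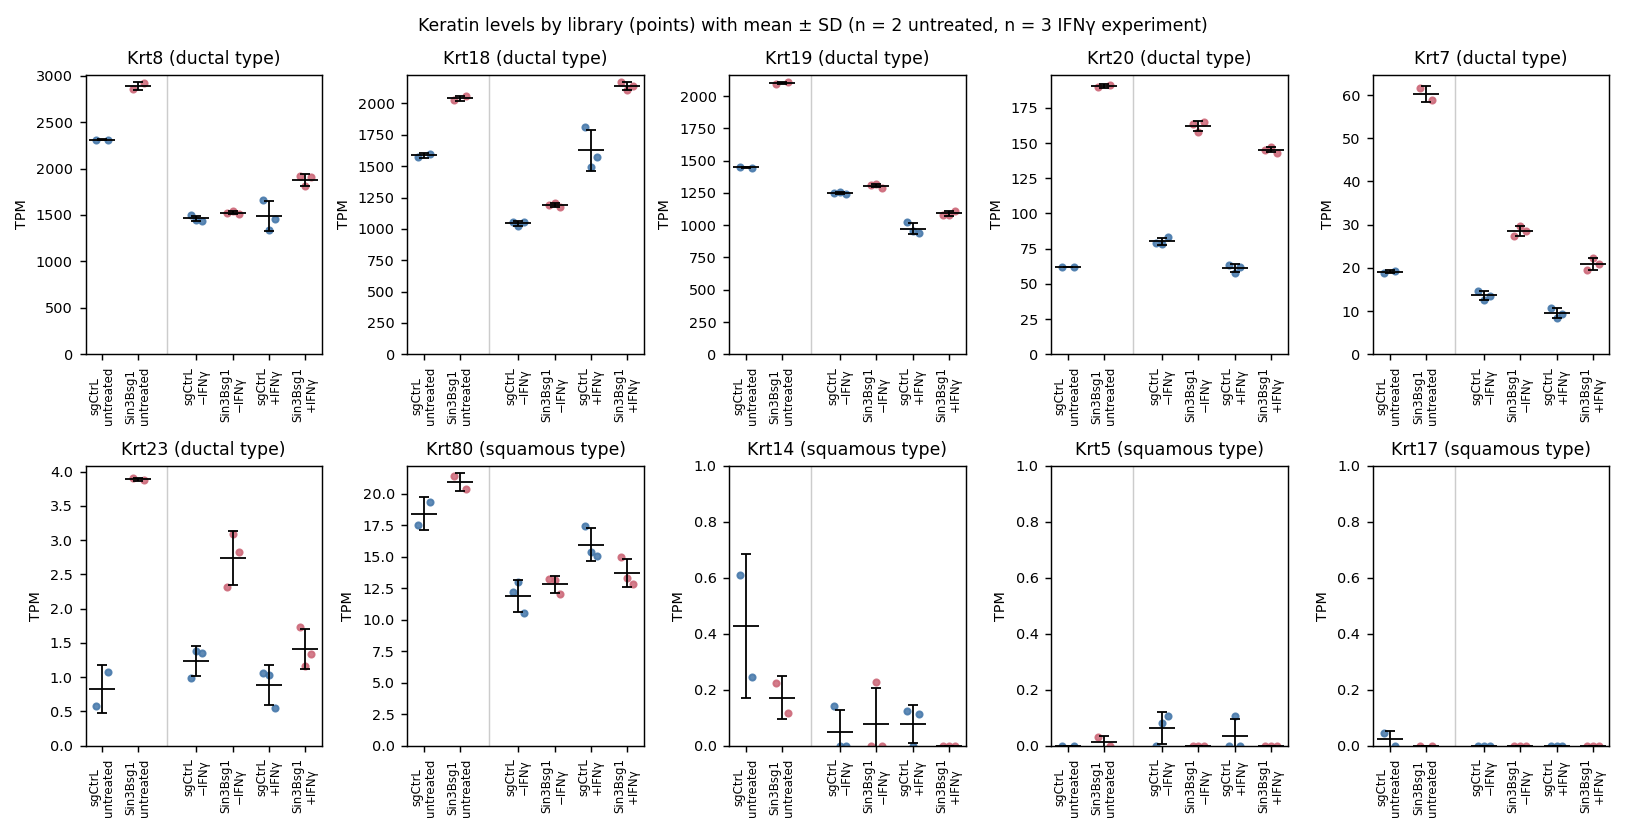
Level of each of the 10 keratins in TPM on a linear axis from 0 (points, libraries; bar and whiskers, mean ± SD; n = 2 untreated, n = 3 in the IFNγ experiment; blue sgCtrL, red Sin3Bsg1). Krt20 and Krt7 separate the guides in every setting, and Krt14, Krt5 and Krt17 stay under 1 TPM. Within the IFNγ experiment Krt18 is higher with IFNγ than without it.

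The basal keratins were at or near the limit of detection. Krt17, a keratin of hair follicles and injured epidermis, had 0 counts in all 12 libraries of the IFNγ experiment and in 3 of 4 untreated libraries, with 1 count in the other. Krt5 had 0 to 3 counts in the 12 libraries of the IFNγ experiment and 0 or 1 in the 4 untreated libraries. Krt14 had 15 and 6 counts in the untreated sgCtrL libraries and 6 and 3 in the Sin3Bsg1 libraries, against 0 to 4 counts in the IFNγ experiment, where 8 of 12 libraries were at 0. Krt5 and Krt17 were in no library above the limit that a count of 0 allows, and Krt14 was above it in 3 of 4 untreated libraries and 1 of 12 of the IFNγ experiment. That limit is 3 counts or 0.0935 to 0.165 CPM (counts scaled for library size), which covers counting error only. Krt5, Krt14 and Krt17 were removed by the filter on low counts, so 7 of the 10 keratins were tested. No test of the other 3 is reported, and a small difference between groups in them would not be detectable at these counts. The measured squamous-type level was therefore that of Krt80, a keratin of differentiating epithelia, which supplied 96.4% to 100% of the summed TPM of the 4 genes.

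Cells with the Sin3b guide had some or all of the 6 ductal keratins higher in each setting, and IFNγ moved single ductal keratins in opposite directions. In untreated cells 6 of 7 tested keratins were higher in Sin3Bsg1, all of them of ductal type, where 15.1% of all 14589 genes tested were called higher and 31.1% in either direction. Without IFNγ in the IFNγ experiment 4 of 7 were higher, where 7.89% of 14913 genes were called higher and 9.33% lower. With IFNγ 5 of 7 were higher, where 8.62% of genes were called higher and 7.9% lower. No keratin among the 7 was called lower in Sin3Bsg1 by edgeR without a replicate block or by DESeq2, while with the replicate number as a block edgeR called Krt80 lower with IFNγ (-0.22 ± 0.071, adjusted p = 0.0488). At an unadjusted p under 0.05 and without the block only Krt80 with IFNγ was lower (unadjusted p = 0.0188 in edgeR). IFNγ in sgCtrL cells raised 2 (Krt18 and Krt80) and lowered 3 (Krt19, Krt20 and Krt7) of the 7, where 15.7% of genes were called higher, 14.5% lower and 30.3% in either direction. In Sin3Bsg1 cells it raised Krt8 and Krt18 and lowered Krt19, Krt7 and Krt23, where 16.1% of genes were called higher and 12.3% lower. Without the library that stood apart, 11.5% of genes were called higher and 7.69% lower between the guides with IFNγ, and 14.9% higher and 15.9% lower under IFNγ in sgCtrL. Without it the same 5 keratins were called between the guides with IFNγ and the same 5 under IFNγ in sgCtrL. A call stands for an adjusted p below 0.05 in edgeR's quasi-likelihood test over all genes, and the median log2 fold change of all genes ranged from -0.0090 to 0.0052 over these 5 comparisons. In RNA from whole cultures, fewer cells of a type and less RNA per cell cannot be told apart.

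**Figure D2:**
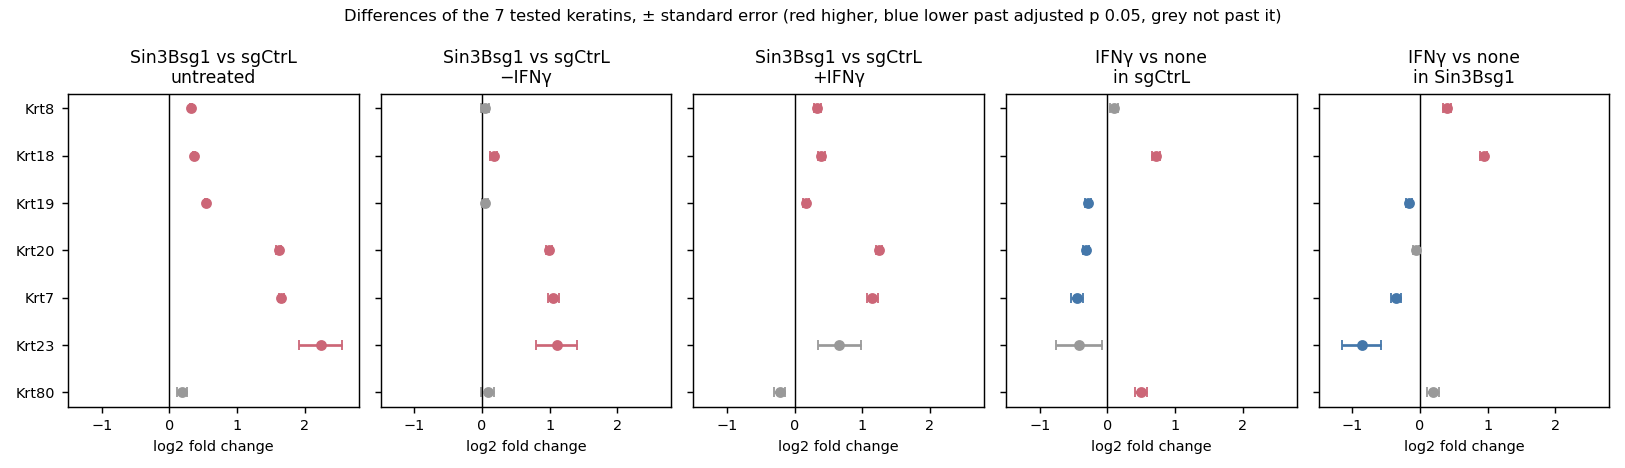
Log2 fold change ± SE of the 7 tested keratins in 5 comparisons, with red for higher and blue for lower past an adjusted p of 0.05 and grey for not past it. In the 3 comparisons of the guides the called keratins all lie to the right of 0, and Krt18 lies to the right and Krt19 and Krt7 to the left under IFNγ in both kinds of cells.

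Krt8 and Krt18 form the filament pair found in all simple epithelia. Krt8 stood at 2312 and 2308 TPM in the 2 untreated sgCtrL libraries and 2856 and 2919 TPM in the Sin3Bsg1 libraries, a log2 fold change of 0.32 ± 0.014 (SE, adjusted p = 6.77e-11). Krt18 stood at 1575 and 1599.7 against 2026 and 2056 TPM, a log2 fold change of 0.36 ± 0.017 (adjusted p = 8.35e-11). For both chains the guides did not overlap, and neither did those of 63.3% of all genes tested with 2 libraries a group.

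Without IFNγ in the other experiment, Krt8 was at 1499, 1451 and 1440.1 TPM in sgCtrL and 1524, 1548 and 1507 TPM in Sin3Bsg1. The guides were apart on the TPM scale but overlapped in TMM-scaled CPM, the scale of the test, and the difference of 0.041 ± 0.057 (log2, SE) did not pass (adjusted p = 0.694). Krt18 was at 1055, 1020.0 and 1057 against 1194, 1205 and 1177 TPM, with no overlap, as for 39.2% of all genes tested. It passed by a small margin (0.17 ± 0.053, adjusted p = 0.0370). This call was lost in 6 of 12 fits that left out a library, namely each of the 6 libraries of this comparison, with differences of 0.16 to 0.19.

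With IFNγ both chains were higher in Sin3Bsg1. Krt8 was at 1662, 1339 and 1457 TPM in sgCtrL and 1915, 1807 and 1911 TPM in Sin3Bsg1, where the sgCtrL library that stood apart, replicate 1, was the highest of its group (0.34 ± 0.057, adjusted p = 6.44e-04). Krt18 was at 1813, 1498 and 1573 against 2173, 2110.1 and 2141 TPM, again with replicate 1 of sgCtrL highest in its group (0.39 ± 0.053, adjusted p = 7.88e-05). Without that replicate the differences were 0.43 ± 0.037 for Krt8 and 0.49 ± 0.032 for Krt18 on the log2 scale. The guides did not overlap for either gene, as for 30.4% of all genes tested.

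IFNγ raised Krt18 in both kinds of cells. In sgCtrL cells Krt18 went from 1044 ± 20.8 to 1628 ± 165 TPM (SD, n = 3), 1.64 times as high in the fit (log2 0.72 ± 0.054, adjusted p = 3.84e-08). In Sin3Bsg1 cells it went from 1192 ± 14.021 to 2142 ± 31.6 TPM, 1.92 times as high (log2 0.94 ± 0.054, adjusted p = 1.11e-09). Its groups with and without IFNγ did not overlap, as for 41.5% of all genes tested in sgCtrL and 45.4% in Sin3Bsg1. Krt8 did not pass in sgCtrL cells (0.10 ± 0.057, adjusted p = 0.218) and rose in Sin3Bsg1 cells (0.39 ± 0.057, adjusted p = 6.61e-05). The sgCtrL value of Krt8 depended on single libraries, at 0.0047 ± 0.036 without replicate 1 of sgCtrL +IFNγ (adjusted p = 0.942) and 0.16 ± 0.054 without replicate 2, where it passed (adjusted p = 0.0410). For Krt18 in sgCtrL cells the value without replicate 1 was 0.63 ± 0.032. The comparison of the guides with IFNγ and that of IFNγ in sgCtrL cells share the 3 sgCtrL +IFNγ libraries.

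The difference between the 2 IFNγ responses was tested as the interaction of guide and IFNγ. No keratin passed in edgeR (0 of 7, where 0.114% of genes, 17 in number, did) or in DESeq2 (0 of 7), while 4 of 7 had an unadjusted p under 0.05. These were Krt20 (0.25 ± 0.065, unadjusted p = 0.00161), Krt8 (0.29 ± 0.081, 0.00228), Krt18 (0.22 ± 0.075, 0.00983) and Krt80 (-0.31 ± 0.12, 0.0255), with the sign that a larger value is a higher response in Sin3Bsg1. Their adjusted p-values were 0.381, 0.431, 0.701 and 0.855. The outcome for the filament pair changed when a single library was left out, and for Krt8 also with the filter. Without replicate 1 of sgCtrL +IFNγ, Krt8 (0.38 ± 0.049, adjusted p = 0.00109) and Krt18 (0.30 ± 0.043, adjusted p = 0.00250) passed in edgeR, and Krt20 did not (0.27 ± 0.061, adjusted p = 0.101). In that fit 33 genes passed. Krt8 also passed with no filter on low counts (0.29 ± 0.067, adjusted p = 0.00695), a fit in which 110 genes passed.

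The ratio between the transcripts of the chains, on the TPM scale, moved with IFNγ in every library. The ratio of Krt18 to Krt8 was 0.704, 0.703 and 0.734 in the sgCtrL −IFNγ libraries and 1.09, 1.12 and 1.08 with IFNγ. In Sin3Bsg1 it was 0.783, 0.778 and 0.781 without and 1.13, 1.17 and 1.12 with IFNγ. Replicate 1 of sgCtrL +IFNγ lay within its group for this ratio, unlike for the levels of both genes. The ratio of type I to type II chains among the 10 genes moved less, from 1.60 ± 0.0336 to 1.77 ± 0.0661 in sgCtrL and from 1.70 ± 0.0110 to 1.77 ± 0.0379 in Sin3Bsg1 (mean ± SD, n = 3), with Krt19 falling while Krt18 rose. In untreated cells it was 1.32 and 1.33 in sgCtrL and 1.47 and 1.45 in Sin3Bsg1. These ratios over chosen genes are descriptions and carry no test.

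Krt19 is the type I keratin of duct cells, which lacks the tail domain of other keratins. Untreated, it stood at 1451 and 1447 TPM in sgCtrL and 2096 and 2106 TPM in Sin3Bsg1, and the guides were far apart relative to the spread of replicates (0.54 ± 0.015, adjusted p = 3.91e-13). Without IFNγ in the IFNγ experiment it was at 1248, 1256 and 1244 against 1313, 1317 and 1291 TPM, overlapped in CPM and did not pass (0.045 ± 0.045, adjusted p = 0.556). The experiments were counted and fitted separately, and the difference between these 2 values was not tested.

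With IFNγ Krt19 was at 1026, 954 and 942 TPM in sgCtrL and 1081, 1079 and 1113 TPM in Sin3Bsg1 (0.16 ± 0.045, adjusted p = 0.0201). This call was lost without replicate 3 of Sin3Bsg1 +IFNγ (0.13 ± 0.043, adjusted p = 0.0688) and without replicate 3 of sgCtrL +IFNγ (0.13 ± 0.047, adjusted p = 0.0835). Without replicate 1 of sgCtrL +IFNγ it was 0.21 ± 0.037. Contrary to Krt18, Krt19 fell under IFNγ in sgCtrL (-0.28 ± 0.045, adjusted p = 1.64e-04) and in Sin3Bsg1 (-0.17 ± 0.045, adjusted p = 0.0107). The ratio of Krt18 to Krt19 went from 0.845, 0.812 and 0.850 to 1.77, 1.57 and 1.67 in sgCtrL libraries and from 0.909, 0.915 and 0.911 to 2.01, 1.96 and 1.92 in Sin3Bsg1 libraries, so Krt18 exceeded Krt19 in TPM in all 6 libraries with IFNγ.

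**Figure D3:**
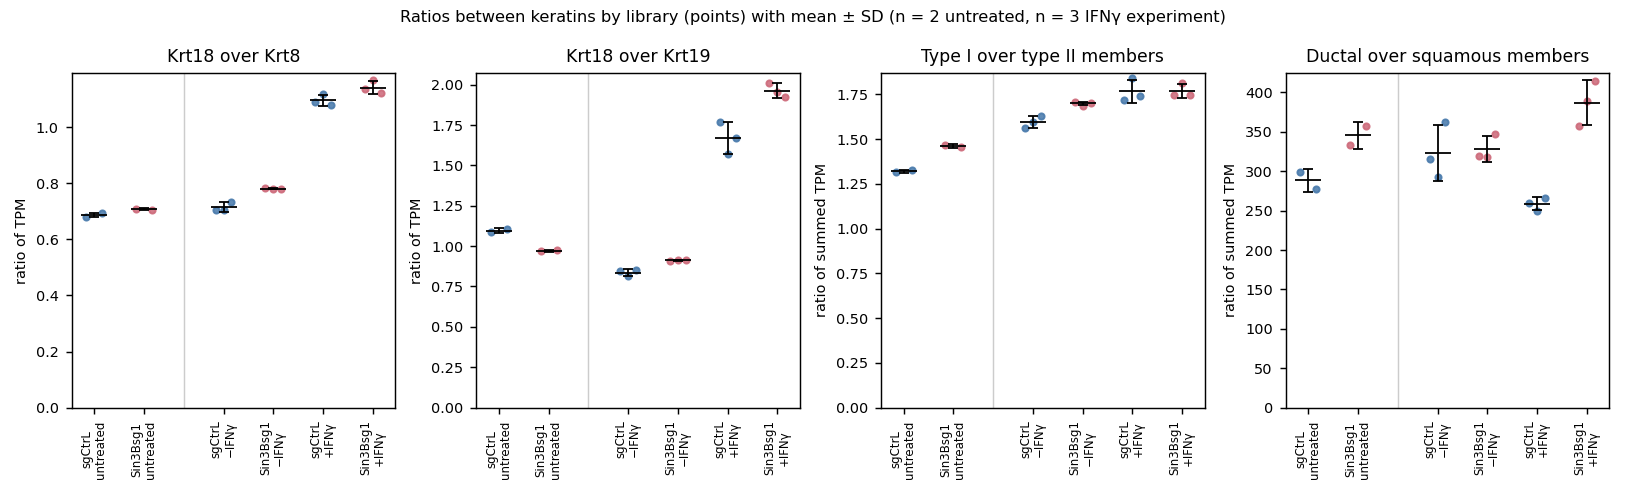
Ratios of TPM between keratins in each library on linear axes from 0 (points, libraries; bar and whiskers, mean ± SD; n = 2 untreated, n = 3 in the IFNγ experiment; blue sgCtrL, red Sin3Bsg1). In the IFNγ experiment Krt18 over Krt8 lies between 0.703 and 0.783 in the 6 libraries without IFNγ and between 1.08 and 1.17 in the 6 with it. In the untreated libraries it lies between 0.681 and 0.710. The ductal over squamous ratio lies between 249.98 and 415.

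Krt7 and Krt20 are found in fewer epithelia than Krt8 and Krt18, and both passed between the guides in all 3 settings. Krt20 was at 62.2 and 62.2 TPM in untreated sgCtrL and 189 and 191 TPM in Sin3Bsg1, 3.06 times as high (1.62 ± 0.034 on the log2 scale, adjusted p = 1.13e-14). Krt7 was at 18.8 and 19.4 against 61.5 and 58.9 TPM, 3.16 times as high (1.66 ± 0.043, adjusted p = 9.86e-14). In the promoter windows, Krt20 held TATAAA and Krt7 held 4 GC boxes, and no motif searched was shared by both.

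The same direction was measured in the IFNγ experiment. Without IFNγ, Krt20 was at 79.0, 78.4 and 83.2 TPM in sgCtrL and 163, 158 and 165 TPM in Sin3Bsg1 (0.996 ± 0.046, adjusted p = 1.08e-09). Krt7 was at 14.6, 12.7 and 13.6 against 27.4, 29.7 and 28.6 TPM (1.05 ± 0.081, adjusted p = 2.22e-07). The guides did not overlap for either gene, as for 39.2% of genes tested.

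With IFNγ, Krt20 was at 63.3, 58.0 and 62.3 TPM in sgCtrL and 145, 147 and 143 TPM in Sin3Bsg1 (1.24 ± 0.046, adjusted p = 1.65e-10). Krt7 was at 10.7, 8.43 and 9.30 against 19.6, 22.2 and 20.9 TPM (1.15 ± 0.083, adjusted p = 1.21e-07). Both genes passed in all 12 fits that left out a library, in this comparison and without IFNγ. Each was also set against a more abundant chain of its own type. Krt20 was 6.42 ± 0.239% of Krt19 (both type I) in sgCtrL −IFNγ and 12.4 ± 0.395% in Sin3Bsg1 −IFNγ. Krt7 was 0.930 ± 0.0512% and 1.87 ± 0.0632% of Krt8 (both type II) in these groups (TPM, mean ± SD, n = 3). Without replicate 1 of sgCtrL +IFNγ the differences with IFNγ were 1.28 ± 0.047 for Krt20 and 1.25 ± 0.079 for Krt7.

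IFNγ lowered Krt7 in sgCtrL (-0.45 ± 0.087, adjusted p = 9.96e-04) and in Sin3Bsg1 (-0.35 ± 0.077, adjusted p = 0.00239). Krt20 fell in sgCtrL (-0.31 ± 0.047, adjusted p = 1.03e-04). Without replicate 1 of sgCtrL +IFNγ these changes in sgCtrL were -0.55 ± 0.083 for Krt7 and -0.34 ± 0.048 for Krt20. In Sin3Bsg1 the change of Krt20 was -0.065 ± 0.045 and did not pass (adjusted p = 0.318). The Krt20 level of every Sin3Bsg1 library with IFNγ remained above that of every sgCtrL library without it.

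Krt23, a type I keratin known for its induction by histone deacetylase inhibitors in pancreatic tumor lines, was the lowest of the tested ductal keratins. It had 13 and 24 counts in the untreated sgCtrL libraries and 96 and 91 in Sin3Bsg1, 0.822 ± 0.351 against 3.89 ± 0.0239 TPM (SD, n = 2), with a log2 fold change of 2.24 ± 0.32 (adjusted p = 4.36e-05).

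Without IFNγ in the other experiment Krt23 had 13, 24 and 18 counts in sgCtrL and 43, 50 and 46 in Sin3Bsg1 (1.10 ± 0.30, adjusted p = 0.0176). The call was lost without replicate 2 of Sin3Bsg1 −IFNγ (adjusted p = 0.0714), replicate 3 of that group (adjusted p = 0.0512) or replicate 1 of sgCtrL −IFNγ (adjusted p = 0.0782). With IFNγ it had 16, 21 and 9 counts in sgCtrL and 30, 22 and 24 in Sin3Bsg1 and did not pass (0.66 ± 0.32, adjusted p = 0.189), with differences of 0.41 to 0.82 when 1 library was left out and 0.80 ± 0.37 without replicate 1 of sgCtrL +IFNγ. The change under IFNγ was -0.42 ± 0.33 in sgCtrL (adjusted p = 0.383), with -0.58 to -0.17 when 1 library was left out and -0.56 ± 0.39 without replicate 1 of sgCtrL +IFNγ, and -0.86 ± 0.29 in Sin3Bsg1, where it passed (adjusted p = 0.0350). DESeq2 did not call the latter (adjusted p = 0.0531), and it was lost in 4 of 12 fits that left out a library, without replicate 2 or 3 of Sin3Bsg1 −IFNγ or replicate 2 or 3 of Sin3Bsg1 +IFNγ (-0.87 to -0.77, adjusted p = 0.0844 to 0.121).

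Krt80, the measured keratin of the squamous group, did not pass between the guides in any setting. With the replicate number as a block it passed in 2 of the 3, with opposite signs. The replicate numbers did not pair the libraries, however, as same-numbered libraries correlated by 0.020 untreated and -0.029 to 0.15 in the IFNγ experiment. Untreated, it stood at 17.5 and 19.3 TPM in sgCtrL and 21.4 and 20.4 TPM in Sin3Bsg1 (0.19 ± 0.070, adjusted p = 0.0547). The guides did not overlap, as for 63.3% of all genes tested. With the replicate number as a block Krt80 passed (adjusted p = 0.0458). It passed there without replicate 2 of Sin3Bsg1 (0.23 ± 0.082, adjusted p = 0.0270) or replicate 2 of sgCtrL (0.26 ± 0.085, adjusted p = 0.0255), fits in which the lone library is assumed to vary like the other group. Without IFNγ in the other experiment it stood at 12.2, 13.0 and 10.5 TPM in sgCtrL and 13.2, 13.2 and 11.996 TPM in Sin3Bsg1, with overlap (0.082 ± 0.089, adjusted p = 0.604).

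With IFNγ Krt80 was at 17.5, 15.3 and 15.1 TPM in sgCtrL and 14.9, 13.3 and 12.8 TPM in Sin3Bsg1 (-0.22 ± 0.085, adjusted p = 0.0884), the only one of the 7 tested members with a lower mean in Sin3Bsg1. With the replicate number as a block it passed (-0.22 ± 0.071, adjusted p = 0.0488). IFNγ raised it in sgCtrL cells (0.49 ± 0.088, adjusted p = 4.69e-04), and in Sin3Bsg1 cells the change of 0.19 ± 0.087 did not pass (adjusted p = 0.119). Without replicate 1 of sgCtrL +IFNγ the change in sgCtrL was 0.42 ± 0.089 (adjusted p = 0.00136) and the difference between the guides -0.15 ± 0.086 (adjusted p = 0.261). The interaction did not pass either, so the 2 responses are not shown to differ.

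The balance of ductal over squamous keratins was dominated by Krt8, Krt18 and Krt19 in the first group and Krt80 in the second. Summed TPM of the 6 ductal genes was 5419.6 and 5438 in untreated sgCtrL libraries and 7233 and 7335 in Sin3Bsg1 libraries. In the IFNγ experiment it was 3852 ± 39.8 in sgCtrL and 4218 ± 44.5 in Sin3Bsg1 without IFNγ, and 4159.5 ± 373 and 5278 ± 96.3 with it (mean ± SD, n = 3). The sgCtrL libraries with IFNγ were at 4576, 3859 and 4044, with replicate 1 highest. Summed TPM of the 4 squamous genes lay between 10.6 and 21.7 in all 16 libraries. The ductal sum was 299 and 278 times the squamous sum in untreated sgCtrL and 334 and 358 times in Sin3Bsg1.

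Without IFNγ the ratio was 316, 293 and 362 in sgCtrL and 319, 318 and 348 in Sin3Bsg1, with overlap. With IFNγ it was 260.3, 249.98 and 267 against 357, 389 and 415, without overlap. As differences of log2 ratios, Sin3Bsg1 minus sgCtrL was 0.26 ± 0.10 untreated, 0.026 ± 0.17 without IFNγ and 0.58 ± 0.12 with IFNγ, and IFNγ minus none was -0.32 ± 0.16 in sgCtrL and 0.24 ± 0.13 in Sin3Bsg1 (± the root of the summed variances of the 2 groups). The value without IFNγ moved between -0.043 and 0.11 when 1 library was left out. With the mean of the members' log2 TPM in place of the sum, the differences between the guides were 1.31, 0.68 and 0.99. The balance was thus lower with IFNγ in sgCtrL, where Krt80 rose, and it has no test, since its genes were chosen with results known.

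Among the 44 other keratins, counted in each experiment apart, 20 (untreated) and 20 (IFNγ experiment) had 0 counts in every library. In the same order, 29 and 33 never exceeded 3 counts. Krt13, a type I keratin of stratified mucosa, had the highest mean, 12.4 TPM untreated and 6.54 TPM in the IFNγ experiment. It went against the ductal keratins untreated (-0.79 ± 0.11, adjusted p = 4.77e-05) and without IFNγ (-0.58 ± 0.13, adjusted p = 0.00562), where it was lower in Sin3Bsg1. With IFNγ it did not pass between the guides, which overlapped at 5.66, 5.36 and 5.27 CPM in sgCtrL and 4.72, 5.53 and 4.94 CPM in Sin3Bsg1. IFNγ raised it in Sin3Bsg1 (0.38 ± 0.13, adjusted p = 0.0427).

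Krt79, a type II keratin of the hair canal, did not pass untreated, at 4.84 and 3.84 CPM in sgCtrL and 4.11 and 5.47 in Sin3Bsg1 (0.14 ± 0.19, adjusted p = 0.630). In the IFNγ experiment it was lower in Sin3Bsg1, from 4.88 ± 0.220 to 1.97 ± 0.0419 CPM without IFNγ (-1.30 ± 0.21, adjusted p = 3.60e-04). Under IFNγ it fell from 4.88 ± 0.220 to 0.591 ± 0.0479 CPM in sgCtrL (-3.02 ± 0.24, adjusted p = 9.00e-08) and from 1.97 ± 0.0419 to 0.266 ± 0.113 CPM in Sin3Bsg1 (-2.87 ± 0.29, adjusted p = 1.13e-06). With IFNγ the guides differed by -1.15 ± 0.33 (adjusted p = 0.0267). Krt10, the type I keratin of suprabasal epidermis, passed by a small margin with IFNγ, where it was higher in Sin3Bsg1 (0.98 ± 0.32, adjusted p = 0.0486), and under IFNγ in sgCtrL, where it was lower (-0.90 ± 0.33, adjusted p = 0.0484). Both calls of Krt10 were lost without replicate 1 of sgCtrL +IFNγ (0.75 ± 0.32, adjusted p = 0.110, and -0.67 ± 0.32, adjusted p = 0.130), and both of Krt79 held.

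Genes of ductal and classical PDAC epithelium were mostly higher in Sin3Bsg1. Untreated, 18 of 27 tested genes of the list were higher and 2 lower, and in the IFNγ experiment 16 of 28 were higher and 1 lower both without and with IFNγ. Over all genes the shares called higher and lower were 15.1% and 16% untreated, 7.89% and 9.33% without IFNγ and 8.62% and 7.9% with it. Leaving out replicate 1 of sgCtrL +IFNγ, an alternative chosen for the lists after seeing the data, gave 18 of 28 higher and 1 lower with IFNγ. The median log2 difference of the list was 0.38, 0.26 and 0.37 in these comparisons. Cdh1 (E-cadherin) went from 136 ± 1.30 to 288 ± 2.99 CPM untreated (1.08 ± 0.026, adjusted p = 6.26e-14) and Muc1, a membrane mucin, from 43.5 ± 0.841 to 91.5 ± 0.103 CPM (1.07 ± 0.041, adjusted p = 1.21e-11). Prom1, a membrane glycoprotein of ducts, went from 8.66 ± 1.09 to 19.2 ± 0.916 CPM (1.15 ± 0.10, adjusted p = 2.83e-07).

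Hnf4a, a transcription factor of endodermal epithelium, rose from 50.1 ± 1.04 to 97.4 ± 1.89 CPM without IFNγ (0.96 ± 0.057, adjusted p = 1.36e-08) and from 33.1 ± 3.19 to 75.2 ± 1.23 CPM with it (1.18 ± 0.059, adjusted p = 2.18e-09), in both cases from sgCtrL to Sin3Bsg1. Lgals4, a galectin of gut-like epithelium, rose from 235 ± 6.88 to 467 ± 2.72 CPM without IFNγ (0.99 ± 0.052, adjusted p = 4.19e-09). IFNγ lowered 13 and raised 3 of 28 genes of this list in sgCtrL, and lowered 11 and raised 5 in Sin3Bsg1, where the shares over all genes were 14.5% lower and 15.7% higher in sgCtrL and 12.3% and 16.1% in Sin3Bsg1. The counts in sgCtrL were also 13 and 3 without replicate 1 of sgCtrL +IFNγ. Spp1 (osteopontin) fell from 3191 ± 35.6 to 1636 ± 65.2 CPM in sgCtrL (-0.96 ± 0.039, adjusted p = 1.54e-11), and Muc1 fell in sgCtrL (-0.70 ± 0.057, adjusted p = 9.24e-08) and in Sin3Bsg1 (-0.76 ± 0.055, adjusted p = 2.35e-08).

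Desmosomes and plakins anchor keratin filaments at the membrane. In untreated cells 9 of 13 tested genes of this list were higher in Sin3Bsg1 and 2 lower, against 3 and 1 of 12 without IFNγ and 2 and 1 of 12 with it, with list medians of 0.44, 0.095 and 0.12 (log2). The count of higher genes untreated stood against 15.1% of all genes and that of lower genes against 16%, and in the IFNγ experiment these shares were 7.89% and 9.33% without IFNγ and 8.62% and 7.9% with it. With IFNγ 3 of 12 were higher and 2 lower without replicate 1 of sgCtrL +IFNγ. Perp, a desmosomal membrane protein, went from 8.50 ± 0.474 to 21.3 ± 0.0351 CPM untreated (1.32 ± 0.092, adjusted p = 1.29e-08) and was also higher without IFNγ (0.90 ± 0.13, adjusted p = 1.55e-04) and with it (1.12 ± 0.14, adjusted p = 3.63e-05). Eppk1 (epiplakin), which binds keratin filaments, rose in Sin3Bsg1 by 0.88 ± 0.080 untreated, 1.06 ± 0.13 without IFNγ and 0.84 ± 0.14 with it (log2 ± SE, adjusted p = 3.42e-07, 3.75e-05 and 4.83e-04). Under IFNγ 4 of 12 genes fell and 2 rose in either kind of cell, where 14.5% of all genes fell and 15.7% rose in sgCtrL and 12.3% fell and 16.1% rose in Sin3Bsg1. In sgCtrL 5 fell and 2 rose without replicate 1 of sgCtrL +IFNγ. Jup (plakoglobin) fell from 192 ± 6.07 to 100.3 ± 13.5 CPM in sgCtrL (-0.94 ± 0.072, adjusted p = 4.94e-08) and from 173 ± 4.32 to 98.6 ± 3.99 CPM in Sin3Bsg1 (-0.81 ± 0.071, adjusted p = 2.70e-07).

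**Figure D4:**
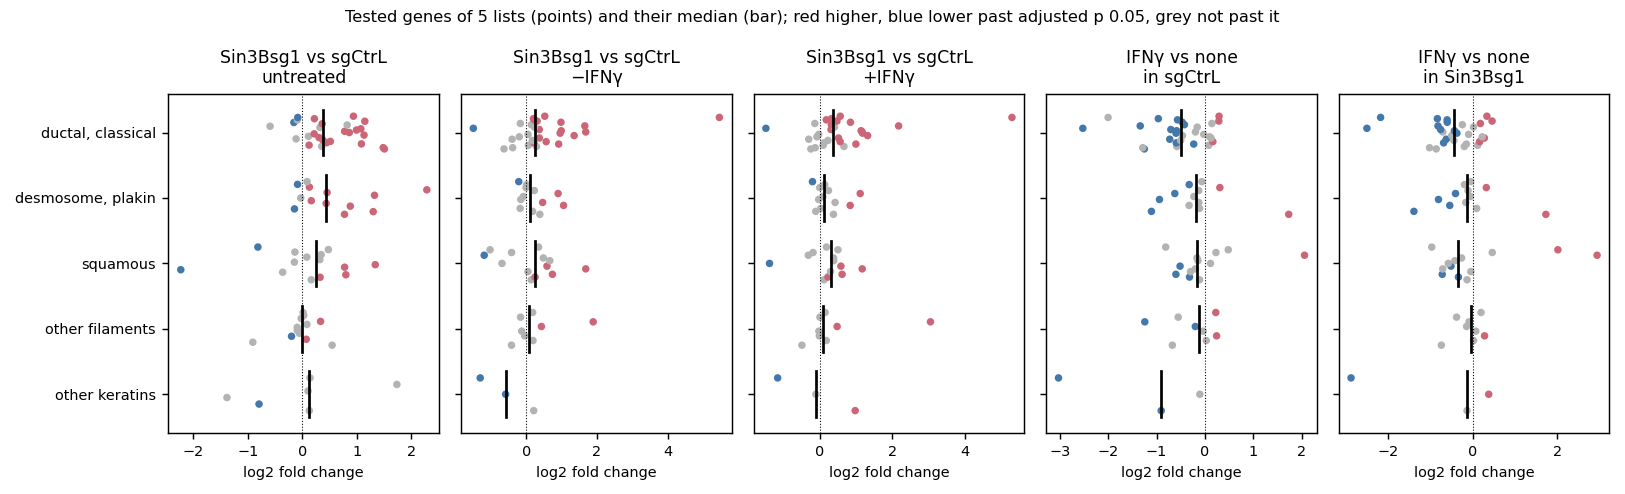
Log2 fold changes of the tested genes of 5 lists (points) with the median of each list (bar), red for higher and blue for lower past an adjusted p of 0.05 and grey for not past it. Most called genes of the ductal and classical list lie to the right of 0 between the guides and to the left under IFNγ. The point past 5 is Tff2, whose mean was 0.297 CPM over the 12 libraries, so that its fitted value depends on the prior count.

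Genes of squamous differentiation and of the hemidesmosome were called in both directions, and between the guides more often higher than lower in Sin3Bsg1. Of 14 tested in untreated cells 4 were higher in Sin3Bsg1 and 2 lower, and of 13 in the IFNγ experiment 4 were higher and 1 lower both without and with IFNγ, with list medians of 0.24, 0.25 and 0.30 (log2). Over all genes 15.1% were higher and 16% lower untreated, 7.89% and 9.33% without IFNγ and 8.62% and 7.9% with it. The counts of lower genes were near these shares, and those of higher genes in the IFNγ experiment were above them. The list was chosen with earlier results of these data known, so this comparison is a description and carries no test. Called or not, 9 of 14 genes were higher in Sin3Bsg1 untreated, 9 of 13 without IFNγ and 10 of 13 with it. With IFNγ 4 of 14 were higher and 0 lower when replicate 1 of sgCtrL +IFNγ was left out. The members named here that rose, Itgb4 and Itga6, belong to the hemidesmosome. Not all of the 4 genes called higher are named, since naming required a mean of 5 CPM or more. Sprr1a (4.12 CPM), Cdsn (4.07) and Sfn (2.82) were under it over the 12 libraries of the IFNγ experiment. The named genes therefore do not stand for the list. Itgb4, an integrin chain of the hemidesmosome, rose from 153 ± 0.0458 to 267 ± 4.51 CPM untreated (0.80 ± 0.027, adjusted p = 1.92e-12) and its partner Itga6 from 536 ± 3.40 to 672 ± 7.74 CPM (0.33 ± 0.019, adjusted p = 1.80e-09). Under IFNγ 3 of 13 fell and 1 rose in sgCtrL, and 3 fell and 2 rose in Sin3Bsg1, where the shares over all genes were 14.5% and 15.7%, and 12.3% and 16.1%. In sgCtrL 3 of 14 fell and 1 rose when replicate 1 of sgCtrL +IFNγ was left out. The calls in sgCtrL and with IFNγ of Hnf4a, Spp1, Muc1, Perp, Eppk1, Jup and Itgb4 given here held without that library. Itgb4 fell by 0.60 on the log2 scale in sgCtrL (adjusted p = 6.72e-06) and by 0.72 in Sin3Bsg1 (adjusted p = 4.11e-07).

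Other keratins were not the genes whose pattern over the 12 libraries of the IFNγ experiment was most like that of the leading members. Among 10502 genes with a mean of at least 5 CPM, Pearson's r of log2 CPM with Krt8 was highest for Galnt3 (0.973), Pck2 (0.949) and Ckap2l (0.942), and Krt18 was at rank 42 (0.878). Krt18 was most like Tars (0.992), Mppe1 (0.991) and Gna13 (0.990), with Krt8 at rank 670, and its r with Krt19 was -0.60. Krt80 was most like Zswim1 (0.938), Ccdc85c (0.923) and Slc25a1 (0.922). The 12 points share 4 groups and their library composition, so these values describe the libraries and carry no test. Krt14, the other squamous keratin ranked, had 4 counts or fewer in each of these libraries, and its correlations are not read.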

How the data were processed

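RNA from KPC1199 cells with sgCtrL or Sin3Bsg1 was sequenced in 4 untreated libraries and 12 libraries of an IFNγ experiment. The authors deposited estimated counts per gene, not normalized, with group means that were not used. The study's methods give HISAT2 on mm9 and featureCounts on unique reads, while the submitters' processing notes list fastp, HISAT2, StringTie, DESeq2 and mm39, so how reads of similar genes were assigned is not settled. Control columns named for a lacZ guide were taken as sgCtrL, the only other guide in each table. Untreated, 324 features without an Ensembl gene (0.615% to 0.677% of counts) were left out.

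Counts were rounded, filtered by filterByExpr, scaled by TMM and tested in each experiment apart with edgeR 4.0.16 in R 4.3.3 (quasi-likelihood, two-sided, Benjamini-Hochberg over all genes tested, threshold 0.05). SE is the absolute log2 fold change over the root of F. TPM used the gene lengths in the deposited tables. Alternatives were DESeq2 1.42.0 and its size factors, no filter, at least 10 counts in every library, a replicate block, only the 6 libraries compared, and each library left out. The fit was tested on simulated data, with limits that were changed after a first run. No label names separate cultures, so p-values measure the spread between these libraries, which may be technical.

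Members and lists were chosen with earlier results of these data known. Named were Sin3b, the members, other keratins that passed at a mean of 1 CPM or more, at most 3 genes of each list per comparison that passed at 5 CPM or more with no overlap, and the 3 genes most like each leading member. Spellings of the AP-1 and interferon-stimulated motifs were changed after a first search, and neither spelling was found in a keratin promoter. Some genes that this rule names, and an allele of the line, are not reported here.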

Additional observations from a re-analysis of the deposited data

How the results depend on the processing

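Of 680 values of single keratins under the alternatives, 653 kept their direction and their side of the threshold, 19 were no longer past it, 8 newly passed and 0 changed direction. Between the guides without IFNγ, the 4 keratins called became 2 to 4 when 1 library was left out, with Krt20 and Krt7 called throughout, and 2 without replicate 2 or 3 of Sin3Bsg1 −IFNγ or replicate 1 of sgCtrL −IFNγ. For the interaction, 0 keratins passed, against 1 (Krt8) with no filter on low counts and 0 to 2 when 1 library was left out (Krt8 and Krt18 without replicate 1 of sgCtrL +IFNγ). Krt19 between the guides with IFNγ did not pass in a fit of only the 6 libraries compared (0.15 ± 0.059, adjusted p = 0.141), and Krt23 under IFNγ in Sin3Bsg1 did not pass with no filter (adjusted p = 0.0611).

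The balance of ductal over squamous keratins depended on how genes were weighted. With the mean of the members' log2 TPM (offset 0.1) in place of the sum, the difference between the guides was 1.31 untreated, 0.68 without IFNγ and 0.99 with it, against 0.26, 0.026 and 0.58, and IFNγ in Sin3Bsg1 gave 0.011 against 0.24. That mean gives genes at 0 to 15 counts the weight of Krt8. Leaving out 1 library gave -0.043 to 0.11 for the balance without IFNγ.

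Over all genes, a fit of only the 6 libraries compared called 3996 genes without IFNγ against 2568, and 1500 with it against 2464. The interaction gave 17, 32 in DESeq2, 110 with no filter and 1 to 33 when 1 library was left out. The replicate numbers did not pair the libraries: same-numbered libraries correlated by 0.020 untreated and -0.029 to 0.15 over 18 pairs of the IFNγ experiment, 2 of them over 0.1. With the replicate block, 4675 genes were called untreated (4543 without the block), 2511 without IFNγ (2568), 2388 with it (2464), 4400 under IFNγ in sgCtrL (4512), 4207 in Sin3Bsg1 (4232) and 13 for the interaction (17). With this block Krt80 passed between the guides untreated (0.19 ± 0.071, adjusted p = 0.0458) and with IFNγ (-0.22 ± 0.071, adjusted p = 0.0488), and Krt23 under IFNγ in Sin3Bsg1 did not (-0.86 ± 0.31, adjusted p = 0.0515). The causes of these changes were not tested. Depth limits Krt5, Krt14, Krt17 and Krt23 most, and groups of 2 or 3 libraries were not tested for outliers.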

Other observations

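Among 20 tested genes of transcription and splicing regulators of epithelial keratin expression, 8 were higher and 8 lower in untreated Sin3Bsg1 cells, and 6 were higher and 3 lower both without and with IFNγ in the IFNγ experiment. Over all genes 15.1% were higher and 16% lower untreated, 7.89% and 9.33% without IFNγ and 8.62% and 7.9% with it. With IFNγ 6 were higher and 2 lower when replicate 1 of sgCtrL +IFNγ was left out. Snai1, a repressor of epithelial genes, went from 12.2 ± 0.108 to 3.12 ± 0.401 CPM untreated (-1.97 ± 0.14 log2 ± SE, adjusted p = 1.51e-08). Elf3, an ETS factor of epithelia, went from 30.0 ± 0.912 to 59.5 ± 2.22 CPM (0.99 ± 0.053, adjusted p = 6.31e-10), and Fosl1, an AP-1 subunit, differed by -0.82 ± 0.048 (adjusted p = 1.62e-09). Snai1 did not pass between the guides in the IFNγ experiment, at 15.3 ± 0.698 in sgCtrL and 15.1 ± 2.02 CPM in Sin3Bsg1 without IFNγ (-0.014 ± 0.10, adjusted p = 0.949) and 10.8 ± 1.07 and 11.1 ± 0.752 CPM with it (0.039 ± 0.11, adjusted p = 0.865). Esrp2, an epithelial splicing regulator, was higher in Sin3Bsg1 by 0.96 ± 0.11 without IFNγ (adjusted p = 1.18e-05) and 0.62 ± 0.11 with it (adjusted p = 7.69e-04). Klf5, a Krüppel-like factor of gut and ductal epithelium, was higher by 0.74 ± 0.069 (adjusted p = 1.93e-06) and 0.59 ± 0.069 (adjusted p = 1.97e-05), and Jun by 0.58 ± 0.075 (adjusted p = 4.66e-05) and 0.67 ± 0.065 (adjusted p = 2.87e-06).

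IFNγ raised 8 and lowered 3 of these 20 regulators in sgCtrL, and raised 7 and lowered 6 in Sin3Bsg1, where 15.7% of all genes rose and 14.5% fell in sgCtrL and 16.1% and 12.3% in Sin3Bsg1. In sgCtrL 6 rose and 4 fell when that library was left out. Jun rose by 1.39 ± 0.073 in sgCtrL (adjusted p = 4.03e-10) and 1.48 ± 0.067 in Sin3Bsg1 (adjusted p = 5.97e-11), and Snai1 changed by -0.50 ± 0.11 (adjusted p = 0.00206) and -0.45 ± 0.10 (adjusted p = 0.00402).

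Of intermediate filament genes other than keratins, 2 of 12 were higher and 1 lower in untreated Sin3Bsg1 cells, where the shares over all genes were 15.1% and 16%. Of 8 tested in the IFNγ experiment, 2 were higher without IFNγ (7.89% of all genes) and 2 with it (8.62%), and 4 of 10 with it when replicate 1 of sgCtrL +IFNγ was left out. Prph (peripherin, a type III chain of neurons) went from 2.34 ± 0.263 to 8.69 ± 0.708 CPM without IFNγ (1.90 ± 0.17, adjusted p = 1.57e-06) and from 1.0037 ± 0.331 to 8.17 ± 0.934 CPM with it (3.05 ± 0.20, adjusted p = 3.16e-08), from sgCtrL to Sin3Bsg1. Nes (nestin) was higher in Sin3Bsg1 by 0.33 ± 0.055 untreated, 0.43 ± 0.067 without IFNγ and 0.48 ± 0.067 with it (adjusted p = 1.94e-04, 2.72e-04 and 9.99e-05). Under IFNγ 2 of 8 rose and 2 fell in sgCtrL (15.7% and 14.5% of all genes) and 1 rose in Sin3Bsg1 (16.1%), and without that library 1 of 10 rose and 2 fell in sgCtrL. Vim, the type III chain of mesenchyme, rose in sgCtrL by 0.22 ± 0.073 (adjusted p = 0.0303), a call lost without that library (0.083 ± 0.033, adjusted p = 0.0688), and the nuclear lamin Lmnb1 rose in sgCtrL (0.24 ± 0.059, adjusted p = 0.00590, and 0.15 ± 0.045, adjusted p = 0.0134, without it) and in Sin3Bsg1 (0.28 ± 0.059, adjusted p = 0.00186).

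Among markers of other cells, Pdgfra was lower in Sin3Bsg1 untreated (-1.78 ± 0.049, adjusted p = 2.14e-13), without IFNγ (-0.26 ± 0.042, adjusted p = 3.60e-04) and with it (-0.21 ± 0.042, adjusted p = 0.00210), while Pdgfrb was lower untreated (-1.14 ± 0.12, adjusted p = 2.43e-06) and higher in the IFNγ experiment (0.19 ± 0.058 without IFNγ, adjusted p = 0.0338, and 0.27 ± 0.061 with it, adjusted p = 0.00593).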
